A study of Homo sapiens with 6 samples.

Results

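CD44 and 9 genes that make, bind or cut hyaluronan were followed in KNS42 cells after depletion of the RNA-binding protein MSI1 (Musashi1). The 10 genes, of 58174 in the deposited table, were taken by name: the receptors CD44 and HMMR, the hyaluronan-binding protein TNFAIP6, the synthases HAS1, HAS2 and HAS3, and the degrading proteins HYAL1, HYAL2, HYAL3 and CEMIP. KNS42 is an established line derived from a glioblastoma (GBM), grown here in DMEM with 10% serum. The study asked how MSI1 controls CD44, a marker of GBM stem cells, and in particular whether it interferes with miRNA-dependent degradation of the CD44 transcript. For the mRNA-seq, cells were transfected with a pool of siRNAs against MSI1 (siMSI1, n = 3 libraries) or with a control siRNA (siC, n = 3 libraries), and RNA was collected 72 h later. Both groups are KNS42 cells with no other genetic change named, and the knockdown is transient in a whole culture, not a clone. No source used here says that the libraries of a group came from separate cultures, so the p-values measure the spread between these libraries, which may be technical.

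Hyaluronan is a very long sugar polymer of the extracellular matrix and is abundant in brain and in GBM. It is built at the plasma membrane by the HAS enzymes from UDP-glucuronic acid and UDP-N-acetylglucosamine, and it is cut by the HYAL enzymes at the cell surface and in lysosomes and through CEMIP outside the cell. CD44 is its main cell-surface receptor and links the matrix to the actin cytoskeleton, HMMR (also called RHAMM) binds hyaluronan and also works on the mitotic spindle inside the cell, and TNFAIP6 (TSG-6) modifies and cross-links the polymer.

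The values are FPKM, read numbers scaled by gene length and by library depth. The reads behind them could be recovered. Genes took 15018417, 18024080 and 14448513 reads in the siC libraries (replicates 1 to 3) and 14379126, 13087025 and 14700593 in the siMSI1 libraries. At these depths 3 reads, taken as the floor of detection, give a 2 kb gene between 0.0829 and 0.114 FPKM, which covers counting error only. Changes were tested with limma on log2(FPKM + 0.1) over the 15069 genes with a mean of at least 0.5 FPKM. A gene is said to have risen or fallen only at a Benjamini-Hochberg adjusted p of at most 0.01.

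The knockdown was seen in every library. MSI1 (ENSG00000135097, GRCh38 chr12:120341330-120369164, minus strand) was at 63.7, 61.9 and 66.9 FPKM in the siC libraries, against 12.1, 12.3 and 11.2 FPKM in siMSI1. This left 18.5% of the control level (log2 fold change −2.43, SE 0.067). For the related MSI2 the log2 fold change was −0.24, not past the threshold (limma adjusted p = 0.0622). The cells carried transcripts of neural stem cells and glia, with VIM at a mean of 1035 FPKM in siC and 865 in siMSI1 and SOX2 at 301 and 257. However, GFAP, the astrocyte filament, was at only 1.63 ± 0.335 FPKM in siC (SD, n = 3), and S100B and OLIG2 were at 0 reads in all 6 libraries. Of 8 markers of blood, vessel and epithelial cells none reached the filter, and their summed level was 0.316 to 0.885 FPKM per library, with KRT5 the most abundant at a mean of 0.189 FPKM. Of these markers, KRT5 (2 to 9 reads per siC library and 11 to 24 per siMSI1 library), CDH5 (0 to 3 and 9 to 22) and PECAM1 (0 to 1 and 5 to 8) were higher in siMSI1 without overlap, while AIF1 was at 0 in all libraries. Among tested genes, 42.8% had groups that did not overlap. In the fit without the filter, KRT5, CDH5 and PECAM1 did not pass the threshold (limma adjusted p = 0.185, 0.104 and 0.121). The groups overlapped for VWF (20 to 37 reads per siC library and 14 to 21 per siMSI1 library), CD14 (1 to 9 and 3 to 4), EPCAM (0 to 6 and 1 to 4) and PTPRC (0 to 1 and 0 to 3). The part of such transcripts in the results was not tested.

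Since the study asked about miRNAs in the control of CD44, the mature sequences of 2 of the miRNAs it studied on CD44, miR-27b-3p and miR-143-3p, are shown here from RefSeq (GRCh38.p14). Capitals mark the seed, bases 2 to 8.
miR-27b-3p: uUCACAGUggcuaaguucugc
miR-143-3p: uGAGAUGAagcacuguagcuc
They lie at chr9:95085505-95085525 and chr5:149428978-149428998. The seeds differ. Matches were searched in the longest annotated 3′UTR of each of the 10 genes (GENCODE 44, GRCh38, transcript strand only). The letters searched were ACUGUGA and CUGUGAA for miR-27b-3p and UCAUCUC and CAUCUCA for miR-143-3p, where the first form pairs with bases 2 to 8 and the second with bases 2 to 7 followed by an A, and both overlapping give an 8-mer.

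The CD44 3′UTR, of 3069 bases, held 3 matches in all. One was an 8-mer for miR-143-3p, 795 to 802 bases after the stop codon (chr11:35230128-35230135, plus strand), and the others were 7-mers for miR-27b-3p at 998 to 1004 (chr11:35230331-35230337) and at 1794 to 1800 (chr11:35231127-35231133). They are shown with 10 bases on each side and the match in capitals.
CD44, miR-143-3p, bases 795 to 802: uucuaagucuUCAUCUCAgagacccuga
CD44, miR-27b-3p, bases 998 to 1004: cuguucucucCUGUGAAaggcuuugca
CD44, miR-27b-3p, bases 1794 to 1800: ccuuucucuuCUGUGAAcaucauuggc
Among the other 9 genes, the synthase HAS3 had 2 matches to miR-143-3p, CEMIP had an 8-mer for miR-27b-3p, and HMMR had 1 match to miR-143-3p. They are printed so that the letters can be compared with those of CD44.
HAS3, miR-143-3p, bases 1190 to 1196: uucuugacaaUCAUCUCcaauggaaag
HAS3, miR-143-3p, bases 1719 to 1725: gugcuuuccuUCAUCUCccacgaacuc
HMMR, miR-143-3p, bases 250 to 256: gcuuagaaugCAUCUCAucaacuuaaa
CEMIP, miR-27b-3p, bases 2257 to 2264: agggucucacACUGUGAAccacuuagga
The HAS3 matches lie at chr16:69116456-69116462 and chr16:69116985-69116991, that of HMMR at chr5:163491414-163491420 and that of CEMIP at chr15:80951181-80951188, all on the plus strand. HAS2 had 1 match to miR-27b-3p, 732 to 738 bases after its stop codon. In HAS1, HYAL1, HYAL2, HYAL3 and TNFAIP6 these letters were not found, and their 3′UTRs were shorter, 315 to 593 bases, than the median of 1539 bases over tested protein-coding genes. Such matches are common: of 11281 tested protein-coding genes with a 3′UTR, 31.5% held at least 1 for miR-27b-3p and 26.3% at least 1 for miR-143-3p. CD44, with the longest 3′UTR of the 10 genes, was the only one of them with matches to both. The share of tested genes with matches to both was not counted. A match describes the letters of the transcript and does not show binding.

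**Figure D1:**
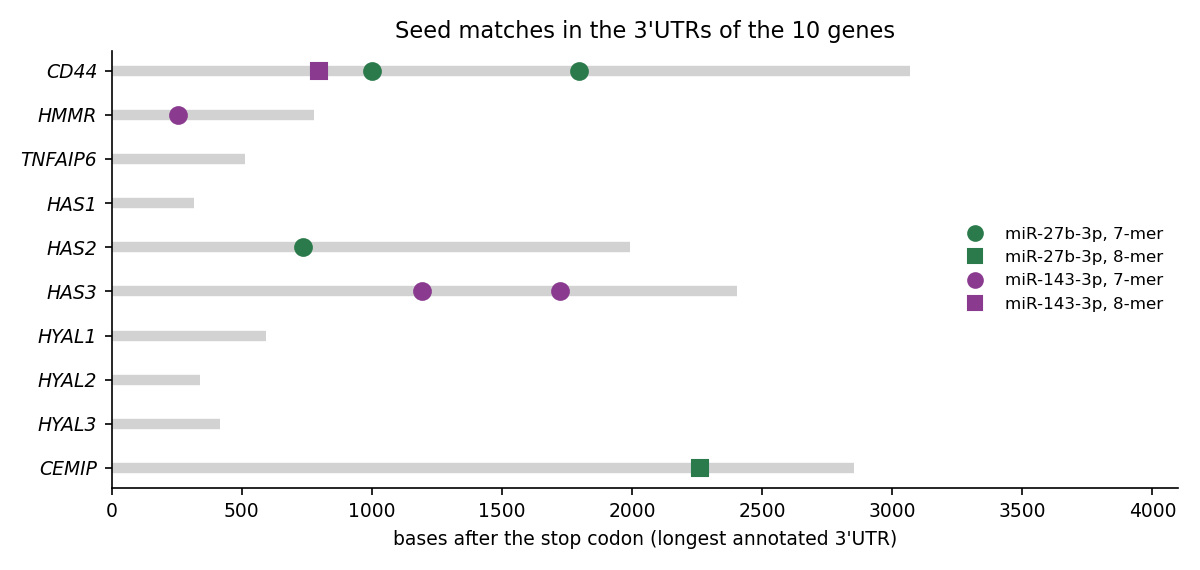
Seed matches in the longest annotated 3′UTR of the 10 genes, with the distance from the stop codon in bases on the x axis. Grey bars give the length of the 3′UTR, colour gives the miRNA, circles are 7-mers and squares 8-mers, and CD44, with 3069 bases, carries 3 matches to the 2 miRNAs.

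The 10 genes spanned a wide range of expression. In siC, CD44 came first at 84.8 FPKM, a level above 97.7% of all protein-coding genes. It was followed by HYAL2 at 13.6, HMMR at 6.77, HYAL3 at 4.40, HAS2 at 2.48 and HAS3 at 1.52 FPKM. The libraries of neighbours in this order did not overlap down to HAS3. HYAL1 and CEMIP, at 0.156 and 0.107 FPKM, overlapped with each other, and HAS1 and TNFAIP6 were listed at 0 or 1 read in each library, under the floor. In siMSI1 the order was the same at the top, but HAS3 moved above HAS2, and the libraries of HAS3 (3.54 to 4.04 FPKM) then overlapped with those of HYAL3 (3.38 to 4.94 FPKM).

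Of the 10 genes, 6 reached the filter on low values. CD44 fell, HAS3 rose, and HAS2, HYAL2, HYAL3 and HMMR did not pass the threshold. Over all tested genes 11.0% changed, 5.83% lower and 5.15% higher, and 1 lower and 1 higher among 6 are too few to be read against that background. The groups did not overlap for CD44, HAS2 and HAS3, 3 of the 6, whereas 42.8% of all tested genes had groups that did not overlap.

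**Figure D2:**
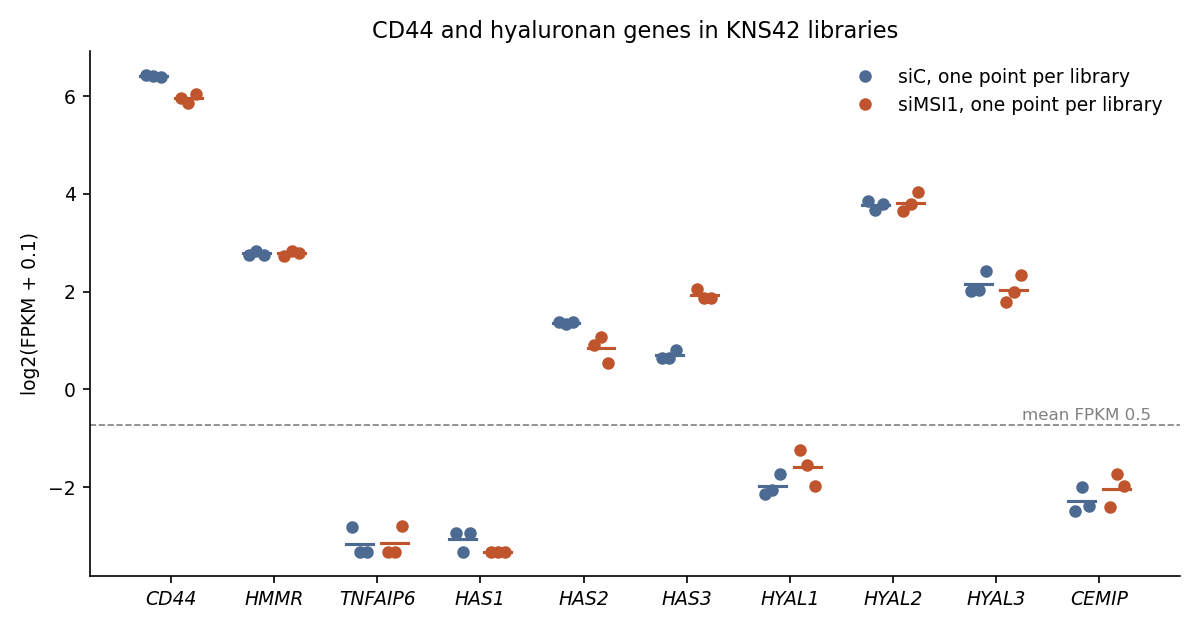
Level of the 10 genes in each KNS42 library, as log2(FPKM + 0.1), with genes on the x axis. Points are libraries, short lines the mean of each group and the dashed line the minimum mean of 0.5 FPKM for testing. CD44 and HAS2 lie lower and HAS3 higher in siMSI1, and 4 genes lie under the line.

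CD44 (ENSG00000026508, chr11:35138882-35232402, plus strand, 18 exons in the canonical transcript) encodes the receptor itself. Its level was 86.6, 84.3 and 83.4 FPKM in siC and 62.4, 57.7 and 65.4 FPKM in siMSI1. Every siMSI1 library lay below every siC library, and siMSI1 replicate 2 was the lowest. The mean fell from 84.8 ± 1.64 to 61.9 ± 3.89 FPKM (SD, n = 3), which is 73.0% of the control, with a log2 fold change of −0.46 (95% interval −0.61 to −0.30, SE 0.067, limma adjusted p = 0.00303). CD44 had 12067 to 15340 reads per siC library and 7611 to 9451 per siMSI1 library, so counting error was a small part of this spread. In bulk RNA, fewer cells with a transcript and less of it per cell cannot be told apart, and a value per gene does not separate the CD44 splice forms. The fold change stayed between −0.50 and −0.41 when 1 library was left out, but the adjusted p was then above 0.01, at most 0.0229, for any library other than siMSI1 replicate 3.

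Annotated neighbours of CD44 were measured too, since strand use in the read counting is not given in the sources used here and overlapping genes could then share reads. CD44.AS1, on the opposite strand, had a log2 fold change of −0.32 (limma adjusted p = 0.576). AL133330.1, on the same strand, had −0.69 (adjusted p = 0.148), and AL356215.1, which shares 70 bases on the opposite strand, had 0.77 (adjusted p = 0.127). None of the 3 passed the threshold.

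HMMR (ENSG00000072571, chr5:163460203-163491941, plus strand) is the other receptor, and it did not pass the threshold. It was at 6.66, 7.02 and 6.62 FPKM in the siC libraries, against 6.57, 7.04 and 6.78 FPKM in siMSI1. The groups overlapped throughout, with means of 6.77 ± 0.220 and 6.79 ± 0.234 FPKM and a log2 fold change of 0.00 (95% interval −0.16 to 0.17, limma adjusted p = 0.971). The interval for CD44, −0.61 to −0.30, lies below all of this interval, although the difference between the genes was not itself tested. HMMR is also a spindle gene, and 16 mitotic genes were read beside it. Of these 3 fell (TPX2, CDK1 and MKI67) and none rose, beside 5.83% of all tested genes that fell, with a median log2 fold change of −0.22 against 0.00 over all tested genes. The count of 3 was not stable: it was 0 without the filter and with plain variance moderation, 0 to 2 with 1 library left out, 6 with the replicate block and 11 with voom and the block. TPX2, a spindle assembly factor that works with HMMR, went from 96.4 ± 1.99 to 73.9 ± 5.75 FPKM (−0.39, limma adjusted p = 0.00794). HMMR.AS1, which overlaps HMMR over 8877 bases on the opposite strand, was between 0.145 and 0.628 FPKM and was under the filter.

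TNFAIP6 (ENSG00000123610, chr2:151357592-151380046, plus strand), which moves the heavy chains of inter-alpha-inhibitor onto hyaluronan, was practically without reads. It had 1 read in siC replicate 1 and 1 in siMSI1 replicate 3, and 0 in the other libraries. With 3 reads as the floor, this allows a level of up to 0.105 to 0.145 FPKM per library, and no fold change is given.

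Of the 3 synthases only HAS3 passed the threshold. HAS3 (ENSG00000103044, chr16:69105653-69118719, plus strand) was at 1.46, 1.45 and 1.64 FPKM in the siC libraries, against 4.04, 3.55 and 3.54 FPKM in siMSI1. All siMSI1 libraries were far above all siC libraries. The mean rose 2.44-fold, from 1.52 ± 0.107 to 3.71 ± 0.286 FPKM, on 116 to 139 reads per siC library and 246 to 315 per siMSI1 library (log2 fold change 1.23, 95% interval 0.97 to 1.5, SE 0.115, limma adjusted p = 0.000534). HAS3 passed the threshold under every alternative setting that was run, also without any one library. Its end overlaps CHTF8 by 710 bases on the opposite strand. CHTF8, at 34.0, 32.8 and 34.0 FPKM in siC and 30.8, 29.3 and 33.2 in siMSI1, did not pass the threshold (−0.11, limma adjusted p = 0.27).

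HAS2 (ENSG00000170961, chr8:121612116-121641440, minus strand), the enzyme that makes very long chains, was at 2.52, 2.43 and 2.49 FPKM in the siC libraries, against 1.78, 2.0 and 1.36 FPKM in siMSI1. The groups did not overlap, and siMSI1 replicate 3 was the lowest. The siMSI1 mean, 1.72 ± 0.325 FPKM, was 69.2% of the siC mean of 2.48 ± 0.0457 FPKM, but this did not pass the threshold (log2 fold change −0.52, 95% interval −0.88 to −0.17, SE 0.154, limma adjusted p = 0.0425). With 82 to 110 reads per siMSI1 library, HAS2 was measured with less precision than CD44, whose estimate of −0.46 was of similar size with an SE of 0.067. HAS2.AS1, which shares 2148 bases with HAS2 on the opposite strand, was at 0.554 to 0.852 FPKM in siC and 0.814 to 0.977 FPKM in siMSI1 (0.33, limma adjusted p = 0.341).

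HAS1 (ENSG00000105509, chr19:51713112-51723991, minus strand) had 1 read in each of siC replicates 1 and 3 and 0 reads in the other 4 libraries. The floor of 3 reads corresponds to 0.074 to 0.102 FPKM here. No fold change is given, and a difference was not detectable at this depth.

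Per length, the synthase transcripts were mostly HAS2 in siC and mostly HAS3 in siMSI1. The ratio of HAS3 to HAS2 was 0.582, 0.598 and 0.660 in siC and 2.27, 1.77 and 2.60 in siMSI1. HAS3 made up 37.8 ± 1.52% of the summed HAS FPKM in siC and 68.5 ± 4.22% in siMSI1. The sum itself was 4.01, 3.88 and 4.16 FPKM in siC and 5.82, 5.55 and 4.90 FPKM in siMSI1. The ratio, the share and the sum restate the values of the synthases, so no test is given for them. For the sum the groups did not overlap, as for 42.8% of all tested genes.

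**Figure D3:**
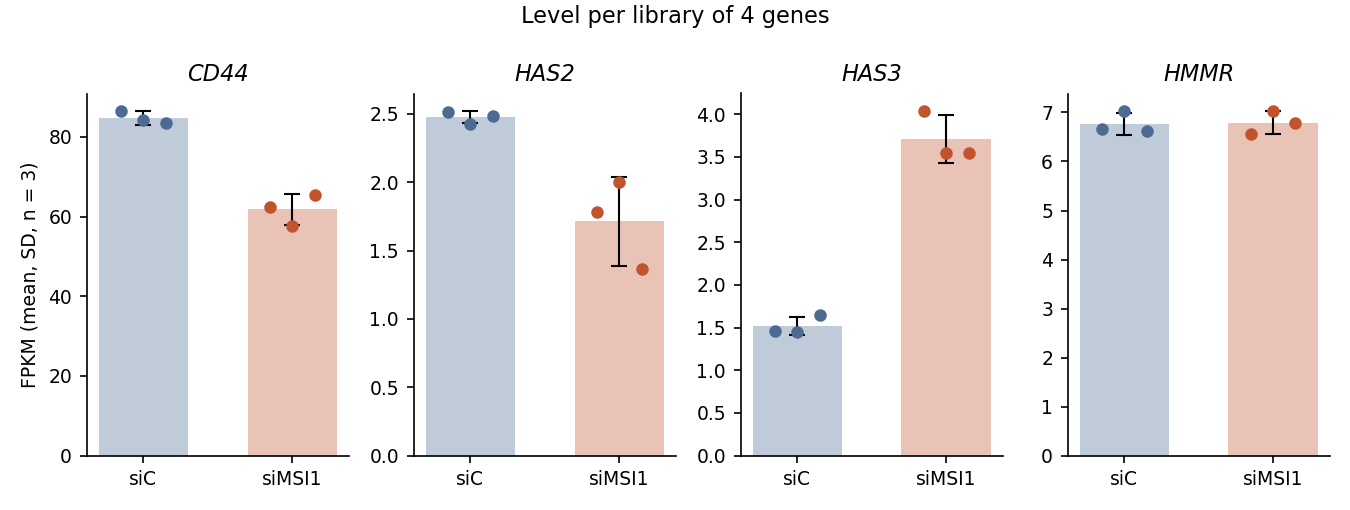
FPKM of CD44, HAS2, HAS3 and HMMR, with bars for the mean of 3 libraries, whiskers for the SD and points for the libraries, and each panel has its own y axis from 0. CD44 and HAS2 are lower in siMSI1 at 73.0% and 69.2% of siC, HAS3 is 2.44-fold higher, and HMMR overlaps.

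The hyaluronidases did not pass the threshold in either direction. HYAL2 (ENSG00000068001, chr3:50317790-50322782, minus strand), which is anchored to the cell surface and cuts long chains, was at 14.4, 12.6 and 13.8 FPKM in the siC libraries, against 12.4, 13.7 and 16.3 FPKM in siMSI1. The groups overlapped, and the spread in siMSI1 was the larger (13.6 ± 0.914 against 14.1 ± 2.03 FPKM; log2 fold change 0.05, 95% interval −0.21 to 0.30, limma adjusted p = 0.788). HYAL3 (ENSG00000186792, chr3:50292831-50299405, minus strand), a family member with little activity of its own, was at 3.91, 4.0 and 5.27 FPKM in the siC libraries, against 3.38, 3.87 and 4.94 FPKM in siMSI1. These groups overlapped too (−0.12, 95% interval −0.51 to 0.27, limma adjusted p = 0.657). These intervals leave room for changes of the size seen for CD44 in HYAL3, but not in HYAL2.

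HYAL1 (ENSG00000114378, chr3:50299890-50312381, minus strand), the lysosomal enzyme that finishes the cleavage, stayed under the filter. It was at 0.128, 0.141 and 0.200 FPKM in the siC libraries, against 0.325, 0.244 and 0.156 FPKM in siMSI1, on 6 to 15 reads per library. The groups overlapped, and without the filter its log2 fold change was 0.39 (SE 0.32, limma adjusted p = 0.547). CEMIP (ENSG00000103888, chr15:80779343-80951776, plus strand), through which cells break down hyaluronan independently of CD44 and the HYAL enzymes, had 9 to 21 reads per library and was at 0.0788, 0.152 and 0.0912 FPKM in siC against 0.0890, 0.200 and 0.155 in siMSI1. Its log2 fold change without the filter was 0.25 (SE 0.34, limma adjusted p = 0.694).

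The 3 HYAL genes lie near each other on chromosome 3, where HYAL2 and HYAL3 overlap other genes. NAT6 shares 3004 bases with HYAL3 on the same strand, and it was at 3.69, 3.54 and 4.61 FPKM in the siC libraries, against 2.92, 2.27 and 2.36 FPKM in siMSI1 (−0.63, limma adjusted p = 0.0169). IFRD2 shares 88 bases with HYAL3 (−0.29, adjusted p = 0.0757), and TUSC2 shares 2756 bases with HYAL2 (0.32, adjusted p = 0.0403). On chromosome 15, MESDC2 overlaps CEMIP on the opposite strand and was at 7.54 to 7.77 FPKM in siC and 9.01 to 9.81 in siMSI1 (0.29, adjusted p = 0.0193). None of these neighbours passed the threshold, and how reads in the shared bases were assigned was not tested.

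The 4 lists of other pathway genes, 60 genes in all, set these values in context. Of 39 tested, 4 fell and 4 rose, beside 5.83% lower and 5.15% higher over all tested genes. Among 22 other receptors and binding proteins only 6 reached the filter, and 4 were at 0 in all libraries. Of these 6, 3 rose and none fell, where 5.15% of all tested genes rose, and the median log2 fold change was 0.42 against 0.00 over all tested genes. The count was 1 with plain variance moderation and 1 when any siC library was left out. It was 4 with the replicate block and with voom, and 5 with voom and the block. LAYN (layilin), a membrane receptor for hyaluronan, was at 59.9, 61.4 and 58.6 FPKM in the siC libraries, against 82.1, 78.7 and 89.3 FPKM in siMSI1. The groups did not overlap (log2 fold change 0.47, SE 0.068, limma adjusted p = 0.00274). The ratio of LAYN to CD44 per length was 0.708 ± 0.0187 in siC and 1.35 ± 0.0287 in siMSI1. This restates the lower CD44 and the higher LAYN, so no test is given for it.

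ITIH5, of the inter-alpha-inhibitor heavy chain family that is attached to hyaluronan, rose from 39.5 ± 1.30 to 58.3 ± 2.63 FPKM (0.56, limma adjusted p = 0.00111). C1QBP, a mostly mitochondrial protein that also binds hyaluronan, rose from 131 ± 2.14 to 176 ± 6.32 FPKM (0.43, limma adjusted p = 0.00251). VCAN (versican), a large matrix proteoglycan that binds hyaluronan, was at means of 18.9 and 25 FPKM and just missed the threshold (0.41, adjusted p = 0.0106). TLR4, an innate immune receptor that hyaluronan fragments can engage, was at 75.1 and 63.0 FPKM (−0.26, adjusted p = 0.111).

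Of 6 other degrading enzymes, 4 were tested and GUSB changed, beside 11.0% of all tested genes that changed, 5.83% lower. A count of 1 among 4 is too few to be read against that background. The count ranged from 1 to 3 over the alternatives, and CEMIP2 passed the threshold in 9 of 18. GUSB (beta-glucuronidase), which takes glucuronic acid off the chain ends in lysosomes, was at 44.5, 41.2 and 45.6 FPKM in the siC libraries, against 23.5, 23.5 and 26.0 FPKM in siMSI1. It fell to 55.7% of the control, with similar levels in the 3 siMSI1 libraries (−0.84, SE 0.073, limma adjusted p = 0.000429). HEXA, which encodes a lysosomal hexosaminidase subunit, had a log2 fold change of −0.12 and did not pass the threshold (limma adjusted p = 0.407). CEMIP2, a membrane relative of CEMIP, was at 6.95 ± 0.520 FPKM in siC and 9.40 ± 0.627 in siMSI1 (0.43, adjusted p = 0.0111), and HYAL4 and SPAM1 were at 0.

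All 13 genes on the list of UDP-sugar precursor enzymes were tested, and their median log2 fold change was −0.08. Among them 1 fell and 1 rose, beside 5.83% lower and 5.15% higher over all tested genes. These are too few to be read against that background. The count of 2 changed genes became 6 with voom and the block. GFPT2, one of the paired enzymes for the entry step of the hexosamine pathway, was at 8.77, 8.99 and 8.94 FPKM in the siC libraries, against 24.5, 22.9 and 24.3 FPKM in siMSI1. It rose 2.69-fold without overlap (1.41, SE 0.062, limma adjusted p = 0.000111), while its paralog GFPT1 had −0.23 (adjusted p = 0.101). The ratio of GFPT2 to GFPT1 was 1.05 ± 0.0817 in siC and 3.31 ± 0.319 in siMSI1. PGM1, which interconverts glucose phosphates ahead of UDP-glucose, fell from 19.3 ± 0.830 to 12 ± 0.887 FPKM (−0.68, limma adjusted p = 0.00103). UGDH, which makes UDP-glucuronic acid, had −0.24 and did not pass the threshold (adjusted p = 0.162).

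The last list held 19 proteins that anchor, cut, bind or splice CD44, of which 16 were tested and 2 fell, beside 5.83% of all tested genes that fell. This count was 0 without the filter and with plain variance moderation, 0 to 3 with 1 library left out, and 6 with voom and the block. RDX (radixin), which ties the CD44 tail to actin, fell from 92.2 ± 9.17 to 62.7 ± 4.72 FPKM (−0.55, limma adjusted p = 0.00517), a call lost in 6 of 18 alternatives. NF2 (merlin), which binds the same tail and restrains growth, fell from 22.8 ± 0.637 to 16.9 ± 1.12 FPKM (−0.43, limma adjusted p = 0.00454), a call lost in 7 of 18, with an adjusted p of up to 0.029. The other linkers, MSN (moesin) and EZR (ezrin), had log2 fold changes of −0.38 and −0.09 and did not pass the threshold (adjusted p = 0.0125 and 0.42). No gene of this list rose, where 5.15% of all tested genes did, and its median was −0.12. The splicing factors ESRP1 and ESRP2, which steer CD44 splicing in epithelia, had only 1 to 6 reads per library.

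**Figure D4:**
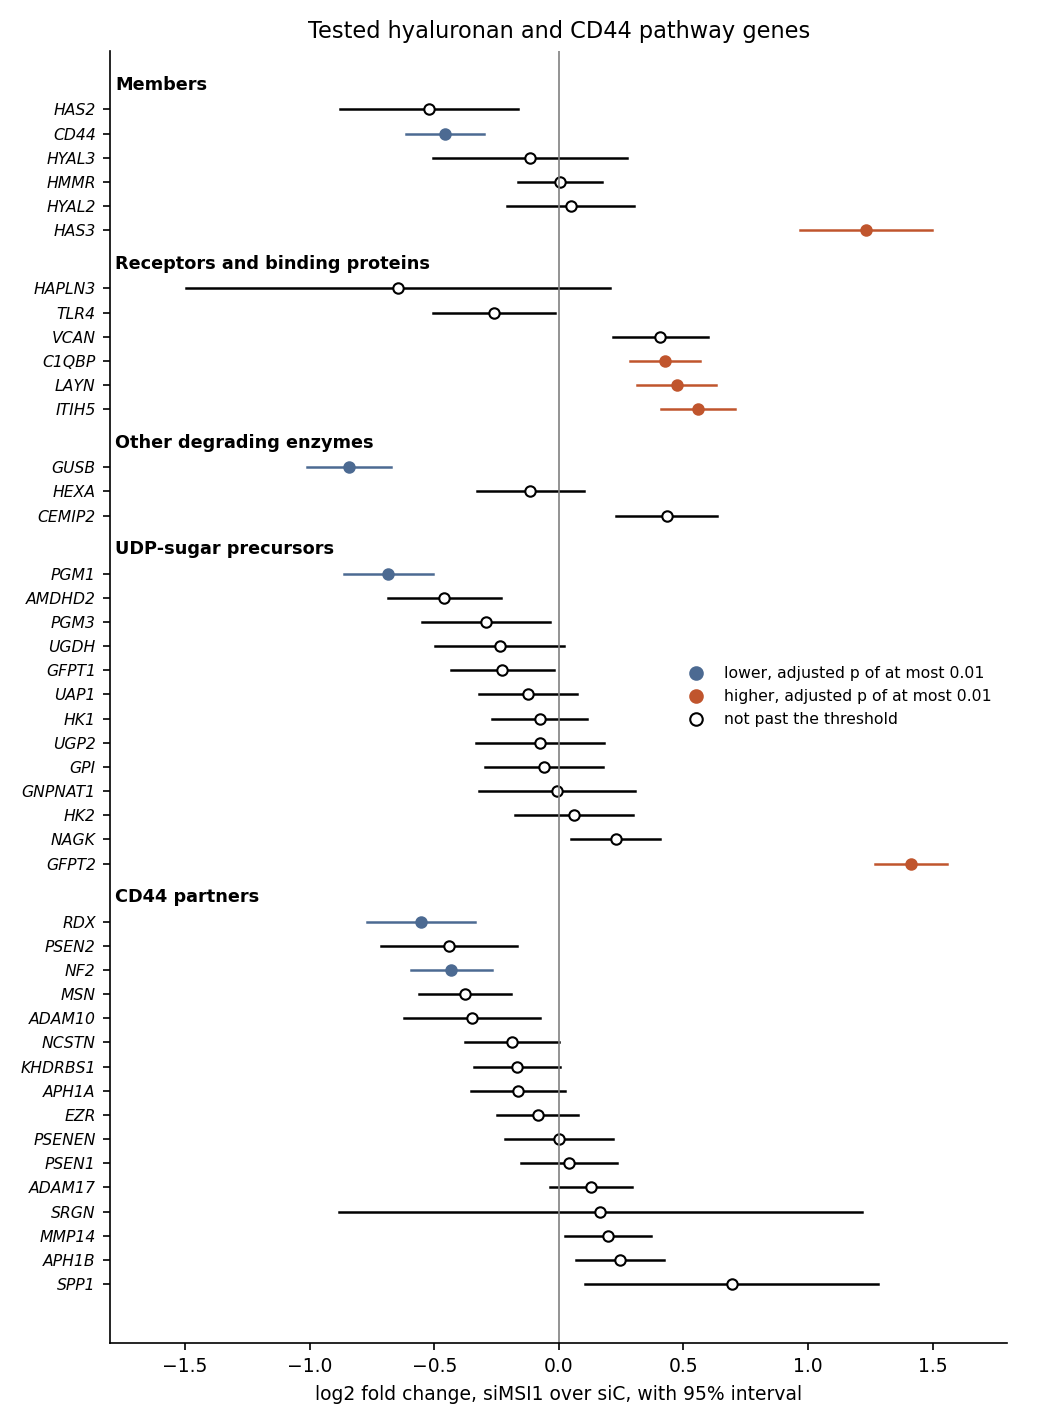
Log2 fold change of siMSI1 over siC with its 95% interval for the tested genes of the 10 and of the 4 pathway lists, with 1 gene not shown. Blue marks genes that fell and orange genes that rose at an adjusted p of at most 0.01. HAS3 (1.23) and GFPT2 (1.41) lie farthest to the right.

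To see which genes shared the profile of CD44, the 13039 tested genes with a mean of at least 1 FPKM were ranked by the root mean square distance of their centred log2 values to those of CD44 over the 6 libraries. Among the 5 nearest were SLC35E1 at a distance of 0.0232, POM121 (0.0257), KANK2 (0.0273) and CDC25A (0.0318). These 4 were lower in siMSI1, which follows from how they were chosen.

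**Figure D5:**
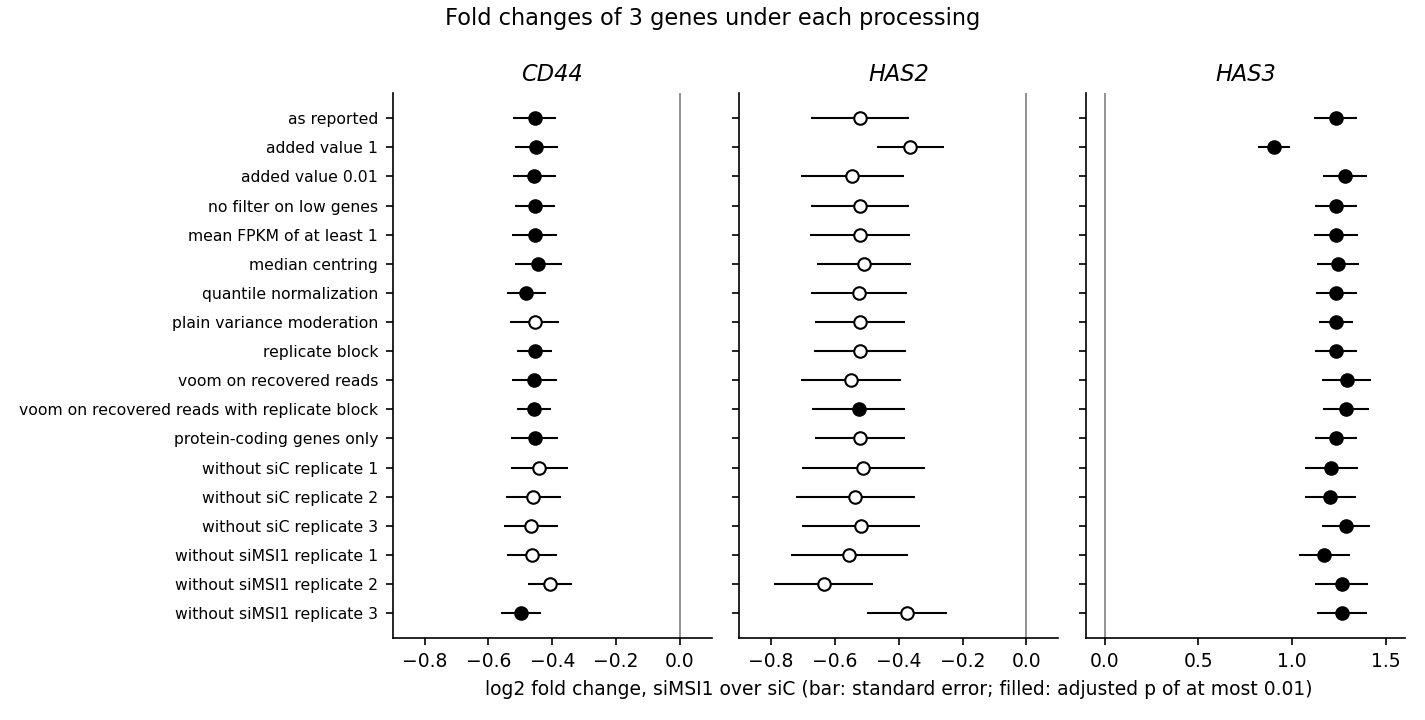
Log2 fold change of siMSI1 over siC for CD44, HAS2 and HAS3 as reported and under each alternative setting, with bars for the standard error and filled points for an adjusted p of at most 0.01. HAS3 is past the threshold in all, CD44 loses it in 6 settings, 5 of them with 1 library left out, and all estimates keep their sign.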

How the data were processed

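Libraries were assigned to siC or siMSI1 from the sample labels. Per the labels and the study's methods, the authors made strand-specific mRNA libraries, clipped reads with cutadapt 1.14, aligned them to GRCh38 with HISAT2 2.1.0, used SAMtools 1.5, summarized reads per gene with featureCounts 1.5.3 on an Ensembl annotation and compared groups with edgeR 3.18.1. The authors deposited 1 table of FPKM, with their own log2 fold changes, p-values and false discovery rates, which were not used. FPKM times gene length gave whole reads for 100% of values above 0 (tolerance 0.01), and libraries had been scaled by 0.977 to 1.03. As the deposited values are FPKM, limma 3.58.1 (R 4.3.3, lmFit, then eBayes with trend and robust, no block) was fitted to log2(FPKM + 0.1). Fold changes of low genes are understated on this scale. The recovered reads were tested only in the alternatives with voom. No pair of libraries was a duplicate (closest pair in a group, chi-square per degree of freedom 3.55).

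The 10 genes, the lists and the rules were chosen with earlier results of these data known. The genes named are the 10, MSI1, MSI2, changed or abundant list genes, annotated overlaps and the 5 genes nearest to CD44. Other list genes, such as HEXA, UGDH and those at or near 0 reads, were named after their values were seen. In all, 2 genes are not reported here. Overlaps, 3′UTRs and positions came from GENCODE 44 on GRCh38, which held 57392 (98.7%) of the table's identifiers. Other data that the study drew on (CLIP peaks from an earlier study, miRNA-seq) were not used here. Alternatives were other added values, filters, scalings, thresholds, limma's voom on recovered reads, the replicate block and leaving out each library. Other steps used Python 3.11.15 (SciPy 1.17.1, pandas 2.3.3, numpy 2.4.6), with figures by matplotlib 3.10.9.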

Additional observations from a re-analysis of the deposited data

How the results depend on the processing

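CD44, HAS2 and HAS3 kept their direction under all 18 alternatives. The CD44 log2 fold change missed the threshold with plain variance moderation (−0.46, limma adjusted p = 0.0136) and with 1 library left out ranged from −0.50 to −0.41 (adjusted p 0.00234 to 0.0229). The HAS2 log2 fold change passed it at an adjusted p of 0.05 (−0.52) and with voom on recovered reads with the replicate block (−0.53, adjusted p = 0.00249), and ranged from −0.64 to −0.37 with 1 library left out. The HAS3 log2 fold change passed throughout, from 0.90 with 1 added before the log to 1.29, and from 1.17 to 1.29 with 1 library left out. The number of changed genes, 1655, became 792 without the filter, 847 with plain moderation, 3787 at an adjusted p of 0.05, 2855 with voom, 5070 with voom and the block, 2545 over protein-coding genes only and 528 to 1603 with 1 library left out, the fewest without siC replicate 1. Of the 10 genes, 2 changed as reported, 1 with plain moderation and 1 to 2 with 1 library left out. In the 4 pathway lists 8 genes changed as reported, 4 with plain moderation, 13 at an adjusted p of 0.05, 20 with voom and the block, 13 over protein-coding genes only and 4 to 11 with 1 library left out. LAYN and C1QBP lost the call in 5 of 18 alternatives, RDX in 6 and NF2 in 7, while ITIH5, GUSB, GFPT2 and PGM1 kept it in all. Calls were gained by CEMIP2 in 9, MSN in 8 and VCAN in 7. The causes were not tested. Replicate numbers are shared by the groups in the labels. The deviations of same-numbered libraries had correlations of −0.0661, 0.0783 and 0.083, and those of other pairs ran from −0.144 to 0.07. These values do not decide whether libraries were paired, and the numbers were not taken as pairs. With the replicate block 2250 genes changed, CD44 at an adjusted p of 0.00366, HAS3 at 0.00175 and HAS2 at 0.0412. Depth limits HAS1 and TNFAIP6, for which a difference was not detectable. HYAL1 and CEMIP were under the filter. Without it their log2 fold changes had SEs of 0.32 and 0.34, so only a large difference could have been seen.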

Other observations

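Other groups of genes were measured in the same libraries. Of 8 interferon-stimulated genes, which can respond to transfected RNA, 7 were tested and OAS1, a sensor of double-stranded RNA, rose (log2 fold change 0.92; limma, adjusted p = 0.00857), with a median of 0.19 over the tested genes and a summed level of 33.4 to 40.4 FPKM per library. Over all tested genes 5.15% rose. The OAS1 call was lost without the filter on low genes, with the replicate block and when any 1 library was left out (adjusted p up to 0.031). IFIT3 and IFIT1 had log2 fold changes of −0.45 and −0.16 and did not pass the threshold (limma, adjusted p = 0.0306 and 0.187), and neither did ISG15 (0.19, adjusted p = 0.122). The groups did not overlap for any of these 3, as for 42.8% of all tested genes. Among the neural stem and glial markers, SOX9, a transcription factor of glial progenitors, fell from 22.2 ± 0.360 to 14.6 ± 0.833 FPKM (−0.61; limma, adjusted p = 0.000976), while GFAP rose from 1.63 ± 0.335 to 4.61 ± 0.450 FPKM (1.46; limma, adjusted p = 0.000905). The summed level of this list was 1453, 1388 and 1446 FPKM in siC and 1162, 1186 and 1262 FPKM in siMSI1, without overlap. Most of this sum was VIM and SOX2, which did not pass the threshold (limma, adjusted p = 0.0382 and 0.0526). Their part in the values of CD44 and HAS3 was not tested.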
